A study of Homo sapiens with 15 samples.

Results

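Cystatins and cathepsins are opposing sides of the lysosomal and secreted protease system, and 10 of their genes were followed through all libraries of the study: the cystatins CST1, CST4, CST3, CST6 and CSTB, and the cathepsins CTSB, CTSD, CTSL, CTSV and CTSZ. They are 10 of 60651 genes in the deposited count table and 10 of 23792 genes in the deposited table of scaled values. They were selected by symbol because CST1 is among the genes that differ most between the libraries labelled KIF20A_OE and EV, so their values in that comparison are a description and carry no test. The stated reason for the selection does not involve the depletion libraries.

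Cystatins are small proteins that block papain-like cysteine proteases by filling the active-site cleft. Type 2 cystatins such as cystatins SN, S, C and E/M are secreted, whereas CSTB (cystatin B) belongs to the type 1 stefins and stays inside the cell. Cathepsins are made as inactive precursors, sorted to lysosomes largely through mannose 6-phosphate, and activated at acid pH. CTSB, CTSL, CTSV and CTSZ are cysteine proteases, and CTSD is an aspartic protease that cystatins do not inhibit. In tumours both families are known for their part in matrix turnover at the cell surface.

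The study profiled RNA from MDA-MB231, a mesenchymal triple-negative breast cancer cell line, after a change in KIF20A, which encodes a mitotic kinesin of the central spindle. In the overexpression dataset, 3 libraries labelled KIF20A_OE (KIF20A overexpression) were set against 3 EV libraries (genotype WT). In the depletion dataset, 3 SG1 and 3 SG3 libraries (both KIF20A knockdown) were set against 3 CTRL libraries (genotype WT). The labels give no further meaning for SG1, SG3 or EV, no promoter or vector, and do not say whether a group is a clone, or whether its replicates came from separate cultures, and the p-values below therefore cover spread among libraries that may be technical replicates.

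With M for 1000000, totals were 16 to 22.2 M fragments in the overexpression dataset and 40.9 to 51 M counts in the depletion dataset. Levels are fragments per 1000000 fragments (FPM) in the overexpression dataset and counts per 1000000 with TMM-scaled library sizes (CPM) in the depletion dataset. Each dataset has its own scaling, so no test was made across them. KIF20A itself stood at 1348, 269 and 896 FPM in the libraries labelled KIF20A_OE, against 101, 143 and 124 FPM in EV. It stood at 121 ± 27.9 CPM in SG1, 75.4 ± 13.1 CPM in SG3 and 162 ± 8.75 CPM in CTRL (SD, n = 3 each), with all libraries of both depletion groups below all CTRL libraries. Its log2 fold change was -0.42 ± 0.176 (SE) in SG1, with an edgeR p of 0.0301 and an adjusted p of 0.913. In SG3 it was -1.10 ± 0.178, with an edgeR p of 1.97e-05 and an adjusted p of 0.33.

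The libraries labelled KIF20A_OE went against their cell line label in genes that mark the line and in genes known as deleted from it. The summed level of 8 genes that mark MDA-MB231 (VIM, CD44, AXL, CAV1, MSN, S100A4, LGALS1 and TGFBI) was 624 to 1110 FPM there, against 7390 to 9120 FPM in EV, and it was 6030 to 7550 CPM across the depletion libraries. A list of 8 hormone receptor and luminal genes, taken as absent or low in this line, summed to 32.2 to 50.4 FPM in the libraries labelled KIF20A_OE. It summed to 778 to 928 FPM in EV and 288 to 484 CPM across the depletion libraries. Within it KRT19 averaged 0.03 FPM in the libraries labelled KIF20A_OE and 828 FPM in EV. FOXA1 ran the other way, at 17.45 FPM there and 0.198 FPM in EV. CDKN2A, CDKN2B and MTAP, known as deleted in this line, summed to 313 to 388 FPM in the libraries labelled KIF20A_OE and were at 0 in the other 12 libraries. Whether a member differs through KIF20A or through another identity of these cells cannot be told apart, and each value of these 3 libraries below is to be read with that limit. Leaving them out leaves no value for that comparison.

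CST1, CST4 and CST2 form a group of near-copies. CST1 encodes cystatin SN, CST4 cystatin S and CST2 cystatin SA, all best known as salivary inhibitors. In the GENCODE 29 transcripts (GRCh38), over the whole coding sequence CST1 was 92.7% identical to CST4 and 91.3% identical to CST2, against 69.6% to CST3. Of all 50-base stretches in the CST1 transcript, 27.3% also occurred in a transcript of another gene, and for CST4 the share was 30.2%. It was 8.3% for CST2 and 0% for CST3. The authors' rule for reads that match several genes is not stated in the labels or files, and the split of reads between CST1, CST4 and CST2 is uncertain to that extent.

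The promoters of 3 cathepsins follow, since their genes took different directions in the libraries labelled KIF20A_OE: CTSD was lower there, CTSV higher, and CTSL overlapped. RefSeq promoters (GRCh38.p14) run from 250 bases before to 50 after the start of a gene, and 5 of the 10 members matched (CST3, CTSD, CTSL, CTSV and CTSZ). CST1, CST4, CST6, CSTB and CTSB had no match. Capitals mark CACGTG, the core of the element read by TFEB and related factors of lysosomal genes. The motif is its own reverse complement, so both strands were searched at once. The CTSD promoter is chr11:1763878-1764177 on the minus strand, that of CTSL chr9:87725869-87726168 on the plus strand, and that of CTSV chr9:97039093-97039392 on the minus strand.
CTSD: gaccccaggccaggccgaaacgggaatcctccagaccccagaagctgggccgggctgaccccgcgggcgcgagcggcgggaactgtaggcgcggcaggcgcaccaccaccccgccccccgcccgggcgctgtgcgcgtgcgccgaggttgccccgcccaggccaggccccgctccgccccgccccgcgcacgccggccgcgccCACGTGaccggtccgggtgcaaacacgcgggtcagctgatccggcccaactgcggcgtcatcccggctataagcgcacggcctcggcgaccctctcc
CTSL: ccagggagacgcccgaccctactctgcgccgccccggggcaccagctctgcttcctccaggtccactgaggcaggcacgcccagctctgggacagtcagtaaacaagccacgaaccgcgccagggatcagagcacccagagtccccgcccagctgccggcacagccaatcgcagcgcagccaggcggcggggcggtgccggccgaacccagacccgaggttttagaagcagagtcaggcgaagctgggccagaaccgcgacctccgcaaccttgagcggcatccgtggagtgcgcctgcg
CTSV: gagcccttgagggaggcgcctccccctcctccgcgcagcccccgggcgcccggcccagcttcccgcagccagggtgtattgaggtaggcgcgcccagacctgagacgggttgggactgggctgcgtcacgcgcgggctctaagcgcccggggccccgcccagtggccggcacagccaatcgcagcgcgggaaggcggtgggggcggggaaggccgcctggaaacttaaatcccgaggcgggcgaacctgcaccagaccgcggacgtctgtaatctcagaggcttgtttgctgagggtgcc
CACGTG occurred 1 time in the CTSD promoter and 0 times in those of CTSL, CTSV, CST3 and CTSZ. Of 35116 promoters of the same length, 7.26% held it. These are matches of letters in a window and say nothing of binding.

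In the genome (GENCODE 29, GRCh38), most secreted cystatins lie in a cluster on chromosome 20. CST3 spans 23626706 to 23638473, CST4 23685640 to 23689040 and CST1 23747553 to 23751268, all on the minus strand. CST6 lies apart on chromosome 11, from 66011841 to 66013505 on the plus strand, and CSTB on chromosome 21, from 43772511 to 43776445 on the minus strand. Among the cathepsins, CTSL (87725519 to 87731393, plus strand) and CTSV (97029679 to 97039643, minus strand) share chromosome 9, and their coding sequences were 83.2% identical. CTSB lies on chromosome 8 (11842524 to 11869448), CTSD on chromosome 11 (1752752 to 1764573) and CTSZ on chromosome 20 (58995185 to 59007247), all on the minus strand. The deposited values count a gene as a whole and do not separate exons or UTRs.

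CST1 and CST4 were close to absent in the libraries labelled KIF20A_OE and abundant in EV, while their cluster neighbour CST3 was present in both. CST1 had 0, 0.0451 and 0 FPM in the libraries labelled KIF20A_OE, against 1250, 777 and 1855 FPM in EV. Those levels rest on 1 fragment in the libraries labelled KIF20A_OE and 73859 fragments in EV. In bulk libraries fewer cells that express a gene and less RNA per cell cannot be told apart.

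CST4 was at 0 FPM in all 3 libraries labelled KIF20A_OE, against 168, 149 and 262 FPM in EV. Set against a floor of 3 fragments per library, it was at least 1030-fold lower in the libraries labelled KIF20A_OE. CST2, which is not a member, was at 0 there too, against 13.4, 15 and 24.7 FPM in EV, which makes it at least 94.2-fold lower. The near-copies CST1, CST4 and CST2 thus shared an order in EV, CST1 above CST4 above CST2 in every library, and a near absence in the libraries labelled KIF20A_OE.

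CST3, the cystatin C gene that most cell types express, kept a sizeable level in both groups. It stood at 174, 123 and 207 FPM in the libraries labelled KIF20A_OE, against 783, 674 and 1445 FPM in EV. The groups did not overlap, and the difference in mean log2(FPM + 1) was -2.47 (KIF20A_OE minus EV). In EV, replicate 3 was highest and replicate 2 lowest for each of CST1, CST4 and CST3.

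CST6 encodes cystatin E/M, an epithelial inhibitor that also blocks legumain. It was at 0 FPM in the libraries labelled KIF20A_OE, against 16.1, 7.40 and 7.29 FPM in EV, and was at least 54.6-fold lower there by the same floor. CSTB, the intracellular stefin, differed least among the cystatins. It stood at 103, 108 and 109 FPM in the libraries labelled KIF20A_OE, against 160, 140 and 211 FPM in EV, a difference of -0.65 on the log2 scale with no overlap.

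**Figure D1:**
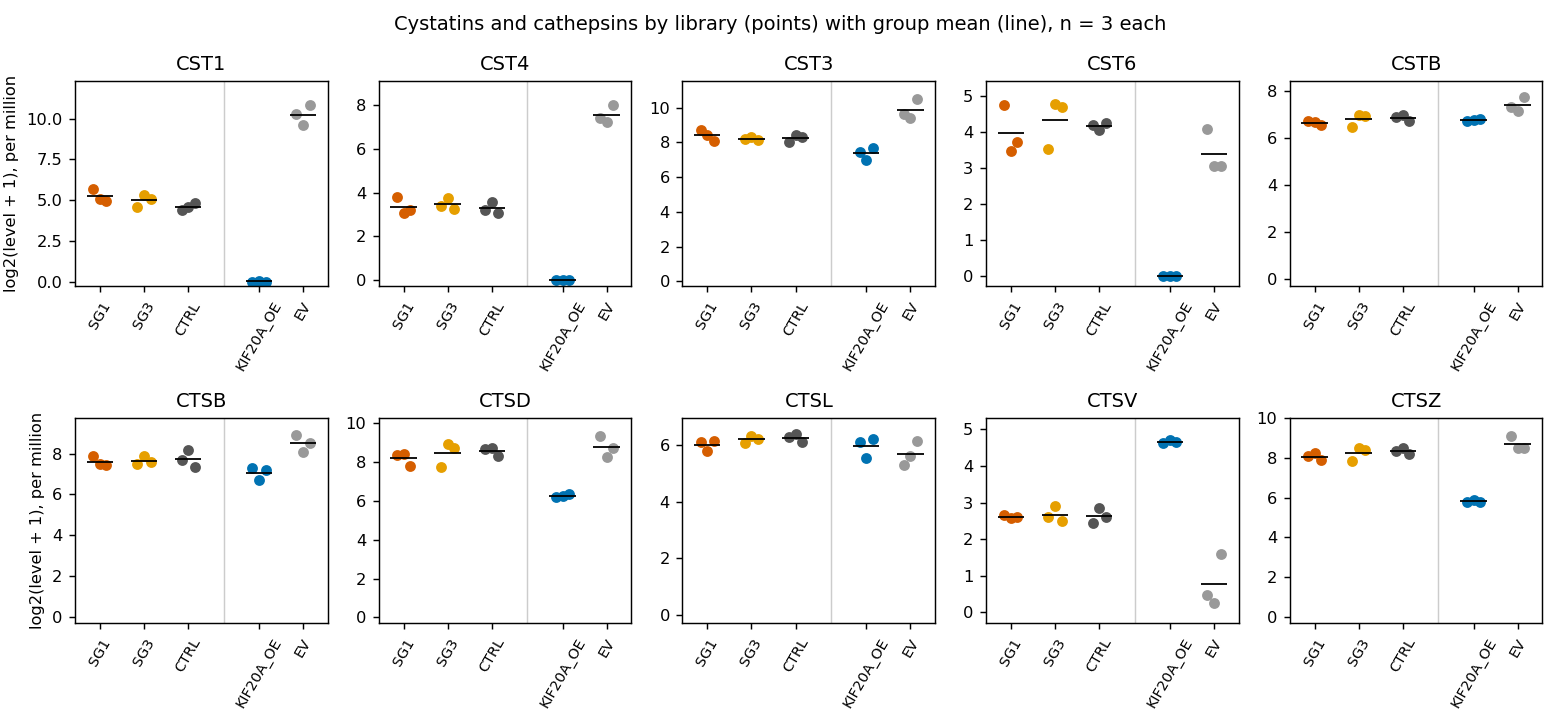
Level of each member in every library, as log2(level + 1) with the level in CPM for SG1, SG3 and CTRL and in FPM for KIF20A_OE and EV; points are libraries, lines are group means, and the grey line parts the separately scaled datasets. CST1, CST4 and CST6 lie at or next to 0 in the libraries labelled KIF20A_OE alone, and CTSV is the member that is higher there than in EV without overlap.

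Of the cathepsins, CTSB, CTSD and CTSZ were lower in the libraries labelled KIF20A_OE, CTSV was higher and CTSL overlapped. CTSZ (cathepsin X, a carboxypeptidase) had 53.5, 58.4 and 53.2 FPM in the libraries labelled KIF20A_OE, against 545, 354 and 360 FPM in EV, a log2 difference of -2.88. CTSD, the major lysosomal aspartic protease, had 72.1, 74.7 and 79.3 FPM there, against 656, 300.0 and 417 FPM in EV, a log2 difference of -2.51. CTSB, which acts both as an endopeptidase and by removing dipeptides from the C terminus, had 154, 104 and 144 FPM there, against 483, 272 and 367 FPM in EV, a log2 difference of -1.46. For all of these the highest library labelled KIF20A_OE lay below the lowest EV library.

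CTSV, a close relative of CTSL best known from thymus and testis, ran the other way. It had 23.8, 25.1 and 24.4 FPM in the libraries labelled KIF20A_OE, against 0.381, 0.193 and 2 FPM in EV. The EV values rest on 8, 4 and 34 fragments, and the log2 difference of 3.90 understates the ratio of so low a gene: the ratio of means, KIF20A_OE over EV, was 28.5. CTSL, a broadly expressed endopeptidase, had 68.6, 46.0 and 73.0 FPM in the libraries labelled KIF20A_OE, against 37.9, 48.2 and 70.7 FPM in EV. Its groups overlapped, and its log2 difference of 0.27 became -0.08 with TMM scaling and -0.10 when the recovered fragments were fitted with edgeR or DESeq2.

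All 10 members passed the filter of a mean of 1 FPM, CST1, CST4 and CST6 through EV alone and CTSV through the libraries labelled KIF20A_OE alone. With 8 members lower and 1 higher without overlap, the background over all 15265 genes was 25.2% lower and 48.9% higher without overlap. By limma at an adjusted p under 0.05 it was 23.4% lower and 46.2% higher. Since the selection used this comparison, nothing is read from the members' count. The main scaling put the median of all genes at 0.37 on the log2 scale, against 0.04 with TMM scaling, and 66.4% of all calls were higher there, against 51% with TMM scaling. Relative to that median, CSTB and CTSB lay further below the bulk of genes, CTSL lay just below it, and CTSV lay above it.

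The rest of the protease system was mixed in the same libraries. Of 10 other cathepsins, 7 could be tested, and by limma 1 was called higher and 5 lower, with a median log2 difference of -0.80, beside 46.2% of all genes called higher, 23.4% called lower and a median of 0.37. CTSH, an aminopeptidase, averaged 41.8 FPM in the libraries labelled KIF20A_OE and 3.32 FPM in EV. CTSS, a cathepsin of antigen-presenting cells, averaged 0.561 FPM in the libraries labelled KIF20A_OE and 9.15 FPM in EV. CTSC, which activates granule proteases, averaged 15.5 FPM in the libraries labelled KIF20A_OE and 75.5 FPM in EV. Like CTSV among the members, CTSH stood on the higher side, while CTSS and CTSC stood on the lower. Of 13 other cystatins only CST2, described above, could be tested, and CSTA had at most 6 fragments in a library. CST5, CST7, CST8, CST9, CST9L, CST11, CSTL1, AHSG, FETUB, HRG and KNG1 had no value under these symbols in the overexpression dataset.

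Among 9 genes that tag, sort and take up these proteins 2 were called higher and 3 lower, with a median of -0.09, beside the same 46.2% higher, 23.4% lower and median of 0.37 over all genes. LRP2, an endocytic receptor that takes up cystatin C, averaged 8.71 FPM in the libraries labelled KIF20A_OE and 0.515 FPM in EV. NAGPA, which uncovers the mannose 6-phosphate tag, averaged 21.3 FPM in the libraries labelled KIF20A_OE and 10.8 FPM in EV. Lower there were the endocytic receptor LRP1, at 77.1 FPM against 224 FPM in EV, and the sorting receptor SORT1, at 102 FPM against 177 FPM in EV. The uptake receptors LRP2 and LRP1 thus lay on opposite sides. Of 25 other lysosomal genes 3 were called higher and 12 lower, with a median of -0.31, set beside 46.2% of all genes higher, 23.4% lower and a median of 0.37. ATP6V1A, a subunit of the proton pump, averaged 172 FPM in the libraries labelled KIF20A_OE and 51.2 FPM in EV, and GAA, the lysosomal alpha-glucosidase, averaged 158 FPM there and 57.9 FPM in EV. NPC1, a cholesterol exporter, averaged 48.2 FPM in the libraries labelled KIF20A_OE and 179 FPM in EV, and the membrane protein LAMP1 averaged 87.4 FPM there and 302 FPM in EV.

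**Figure D2:**
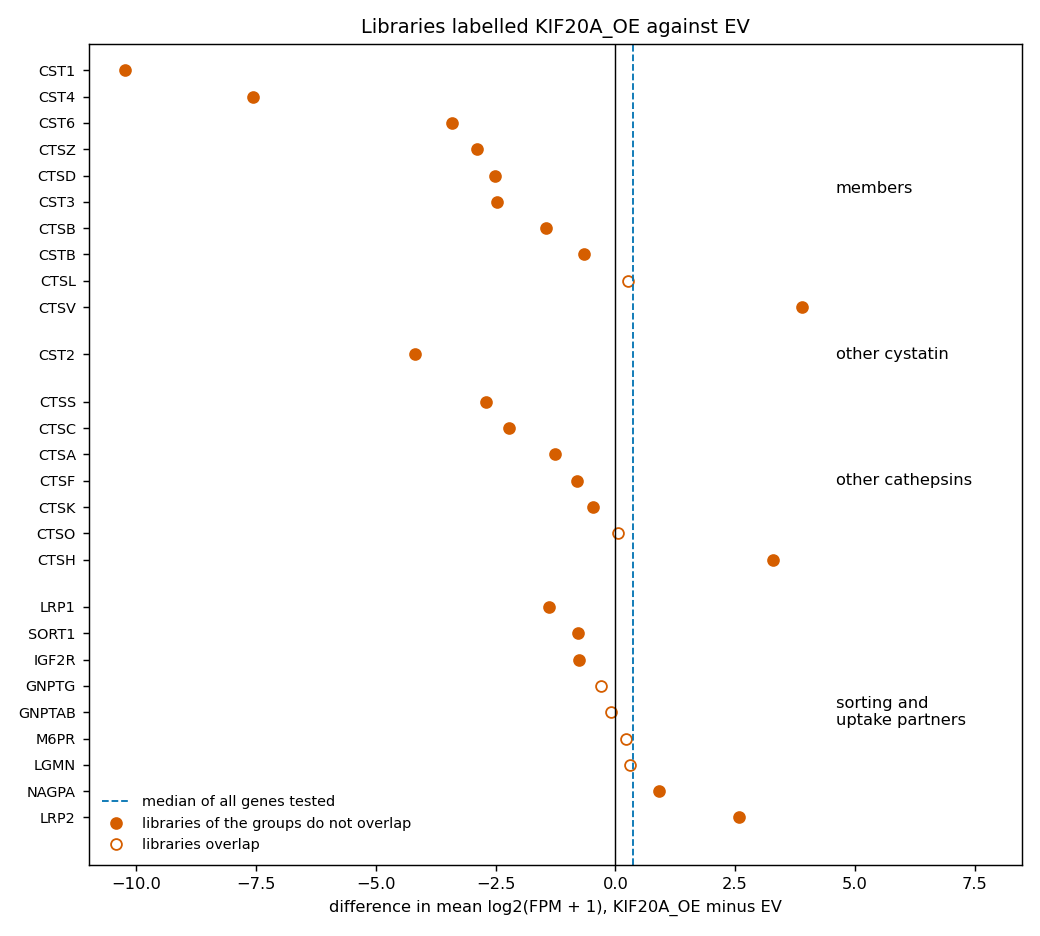
Difference in mean log2(FPM + 1), KIF20A_OE minus EV, for each tested member, other cathepsin, other cystatin and sorting or uptake partner; filled points are genes whose 3 libraries labelled KIF20A_OE do not overlap the 3 EV libraries, open points overlap, and the dashed line is the median of all genes tested at 0.37. CST1, CST4 and CST2 lie furthest left, and CTSV and CTSH furthest right.

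Cells rich in cathepsins were looked for by their markers. Of 10 macrophage genes, 6 had values in this dataset, and they summed to 1.02 to 1.25 FPM in the libraries labelled KIF20A_OE and 6.14 to 10.1 FPM in EV. PTPRC and LYZ were at 0 in the libraries labelled KIF20A_OE, and in EV PTPRC reached 0.666 FPM and LYZ 0.725 FPM at most. CSF1R averaged 0.317 FPM in the libraries labelled KIF20A_OE and 4.23 FPM in EV, and CD14 averaged 0.609 FPM there and 2.32 FPM in EV. FCER1G and AIF1 averaged higher in the libraries labelled KIF20A_OE, at 0.158 and 0.078 FPM, against 0.064 and 0.032 FPM in EV. Those values rest on 9 fragments or fewer per group. CD68, TYROBP, CD163 and MARCO had no value under these symbols in the overexpression dataset. The 7 of 8 fibroblast genes with values summed to 240 to 343 FPM in the libraries labelled KIF20A_OE and 28.7 to 100 FPM in EV. Of the 6 tested, 4 were called higher and 2 lower, beside 46.2% of all genes called higher and 23.4% called lower. FBLN1 averaged 197 FPM in the libraries labelled KIF20A_OE and 0.511 FPM in EV, and COL1A1 77.1 FPM there and 35.1 FPM in EV. PDGFRB averaged 0.783 FPM there and 6.41 FPM in EV, and COL1A2 was at 0 in the libraries labelled KIF20A_OE and averaged 14.9 FPM in EV. The 4 of 8 keratinocyte genes with values, SFN the most abundant in EV, summed to 29.3 to 32.7 FPM in the libraries labelled KIF20A_OE and 195 to 240 FPM in EV. The part of these markers in the members' differences was not tested.

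CST1 led the cystatins in EV, and CST3 led in each of the other groups. Per kilobase of annotated exon, CST1 made up 67.6 to 74.2% of the summed level of the 5 cystatins in EV, and CST3 made up 11 to 13.8%. In the libraries labelled KIF20A_OE, CST3 made up 54.9 to 66.8% and CSTB 33.2 to 45%. CST3 led with 44.9 to 52.2% in SG1, 40.1 to 50.9% in SG3 and 44.5 to 50.3% in CTRL. CST1 took 20.8 to 23.3% in SG1 and 17.3 to 20.8% in SG3, against 14 to 17.4% in CTRL. With the shortest principal transcript as the length, CST1 took 52.3 to 60.2% in EV, 9.3 to 11.5% in SG1, 7.87 to 10.8% in SG3 and 6.41 to 8.09% in CTRL, so the leading gene of each group was the same. EV and CTRL, both labelled as WT cells of the same line, thus had different leading cystatins, and their difference was not tested because the tables were scaled separately.

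**Figure D3:**
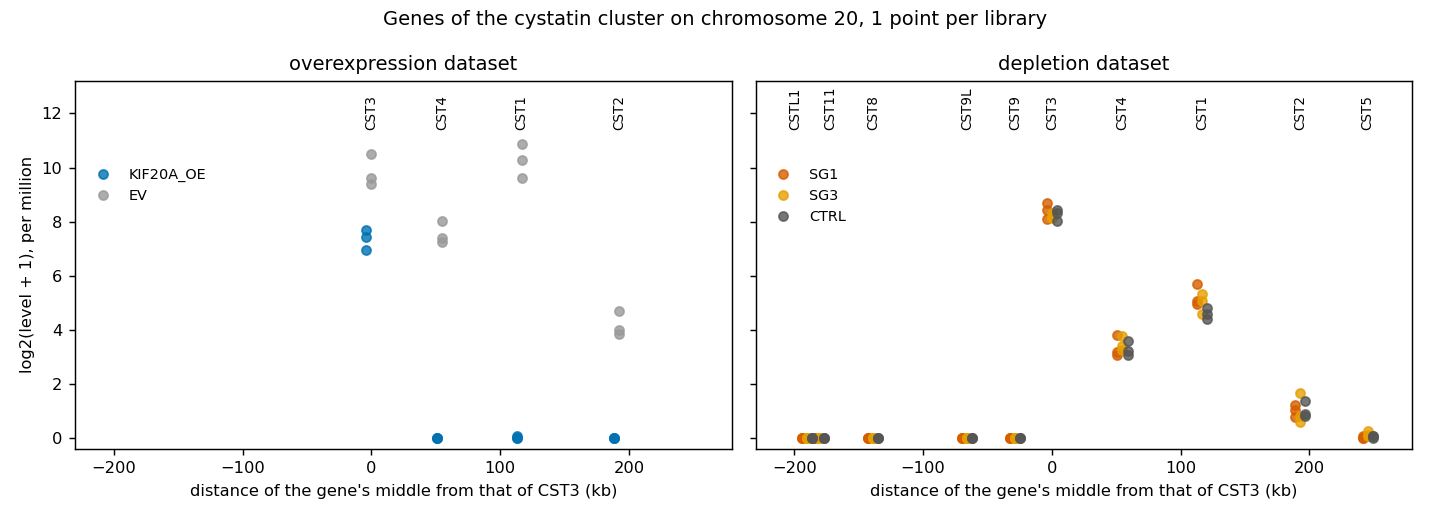
Levels of the chromosome 20 cystatin genes as log2(level + 1), in FPM (left) and CPM (right), against the distance of each gene's middle from that of CST3 in kb; each point is a library. CST1, CST4 and CST2 are at or next to 0 in the libraries labelled KIF20A_OE, while in the depletion dataset CST3 is highest, CST1 next, and the genes to the left of CST3 are at 0.

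By the likeness of centred log2 profiles, the genes closest to CST1 over the 6 overexpression libraries were NT5E, KRT19 and CDCP1, with mean absolute differences of 0.328, 0.359 and 0.404. NT5E (the ectonucleotidase CD73) had 0.125 to 0.428 FPM in the libraries labelled KIF20A_OE and 1191 to 1273 FPM in EV. KRT19, a simple-epithelium keratin, had 0 to 0.0902 FPM there and 744 to 880.2 FPM in EV. CDCP1, a surface glycoprotein, had 0 to 0.125 FPM there and 805 to 884 FPM in EV. Over the 9 depletion libraries the closest were the low-level noncoding genes LERFS and LINC00518, at 0.111 and 0.145, and AC022007.1 at 0.173. LERFS and LINC00518 stayed under 1 CPM in every library. Such a ranking over few libraries describes likeness and no more.

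None of the 10 members passed the threshold in a depletion comparison. By edgeR's quasi-likelihood test over 16786 genes, 0 members and 0 genes at all (0%) passed an adjusted p of 0.05 in SG1 against CTRL, SG3 against CTRL, their mean against CTRL, or SG1 against SG3. At an unadjusted p under 0.05, 4.59%, 1.19%, 1.76% and 4.74% of genes passed in these comparisons. Among the members only CST1 did so, in SG1 and in the mean of both groups. DESeq2 called 2, 4, 4 and 4 genes, and 0 members. SG1 and SG3 share the CTRL libraries.

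CST1 was the member that differed most. It stood at 50.3, 32.8 and 30.1 CPM in SG1, at 23.0, 38.9 and 32.8 CPM in SG3, and at 20.1, 22.9 and 27.0 CPM in CTRL. Every SG1 library lay above every CTRL library, while SG3 replicate 1 lay within the CTRL range. The means were 37.8 ± 11 CPM in SG1, 31.5 ± 8.03 CPM in SG3 and 23.3 ± 3.45 CPM in CTRL (SD, n = 3 each).

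The log2 fold change of CST1 was 0.69 ± 0.223 (SE) in SG1, with an edgeR p of 0.00732 and an adjusted p of 0.913. In SG3 it was 0.43 ± 0.222 with an edgeR adjusted p of 1, and SG1 against SG3 gave 0.26 ± 0.222 with an edgeR adjusted p of 0.861. CST1 was the single member of 10 without overlap in SG1, where 4.96% of all genes were higher and 7.21% lower without overlap. In SG3 0 members were without overlap, beside 2.28% of all genes higher and 2.38% lower. With both depletion groups set together against CTRL it was 0 members, beside 0.536% higher and 0.441% lower, and in SG1 against SG3 0 members, beside 6.26% higher and 4.55% lower. Without a filter on low counts the edgeR adjusted p of CST1 in SG1 was 0.0453, and over the other alternatives it was at least 0.397. Without SG1 replicate 1 the log2 fold change was 0.41.

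The paralogs of CST1 overlapped CTRL. CST4 stood at 13, 7.29 and 8.12 CPM in SG1 and 9.45, 12.6 and 8.56 CPM in SG3, against 8.29, 10.9 and 7.34 CPM in CTRL. CST2 averaged 1.03 CPM in SG1, 1.15 CPM in SG3 and 1.06 CPM in CTRL. CST3 averaged 344 ± 68.7 CPM in SG1 and 294 ± 20.6 CPM in SG3, against 309 ± 46.3 CPM in CTRL (SD, n = 3 each), again with overlap.

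The 3 libraries of CST6 spread widely in each depletion group. It stood at 26.1, 10.0 and 12.3 CPM in SG1 and 10.5, 26.6 and 25.1 CPM in SG3, against 17.3, 15.7 and 18.1 CPM in CTRL. The CTRL libraries lay inside the range of each depletion group. CSTB averaged 99.5 ± 6.95 CPM in SG1 and 111 ± 21.6 CPM in SG3, against 116 ± 10.0 CPM in CTRL (SD, n = 3 each), and its SG1 libraries reached into the CTRL range.

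The abundant cathepsins CTSD and CTSZ averaged lower in SG1 than in CTRL without passing the threshold. CTSD stood at 328, 337 and 223 CPM in SG1 and 211, 482 and 421 CPM in SG3, against 402, 425 and 315 CPM in CTRL. CTSZ stood at 266, 295 and 234 CPM in SG1 and 223, 357 and 328 CPM in SG3, against 320, 360 and 294 CPM in CTRL. In both genes 1 SG1 library or more lay above the lowest CTRL library, so the groups overlapped. The log2 fold change in SG1 was -0.36 ± 0.25 (SE) for CTSD and -0.29 ± 0.173 for CTSZ, each with an edgeR adjusted p of 0.913. In SG3 they were -0.04 and -0.10, and without SG3 replicate 1 the value of CTSD was 0.27.

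CTSL averaged 64.3 ± 8.79 CPM in SG1 and 73.1 ± 6.81 CPM in SG3, against 76.4 ± 7.36 CPM in CTRL. CTSB averaged 194 ± 33.7 CPM in SG1 and 202 ± 30.5 CPM in SG3, against 218 ± 61.4 CPM in CTRL. CTSV averaged 5.13 ± 0.218 CPM in SG1 and 5.41 ± 0.912 CPM in SG3, against 5.22 ± 0.862 CPM in CTRL (SD, n = 3 each for all of these). The libraries of CTSL, CTSB and CTSV overlapped CTRL in both groups. Across the members the median log2 fold change was -0.12 in SG1 and -0.05 in SG3, beside 0.00 and -0.01 over all genes tested.

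**Figure D4:**
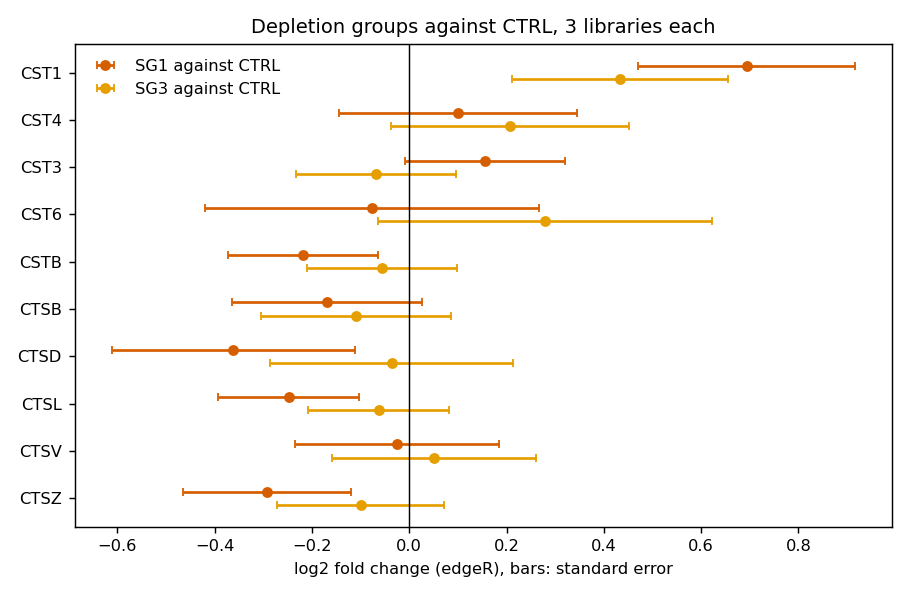
Log2 fold change of each member in SG1 and in SG3 against the shared CTRL libraries, from edgeR, with bars for the standard error (3 libraries per group). CST1 lies furthest right in both groups, at 0.69 and 0.43, and the other members lie between -0.36 and 0.28.

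The wider lists likewise had 0 genes called by edgeR in each depletion comparison. Among the other cathepsins CTSS averaged 40.8 CPM in SG1, against 28.92 CPM in CTRL, with an edgeR p of 0.0065 and an adjusted p of 0.913, while in SG3 it averaged 28.97 CPM. CTSF averaged 40.3 CPM in SG1 and 45.2 CPM in SG3, against 50.7 CPM in CTRL. CTSS thus averaged higher than CTRL in SG1, but in SG3 was level with it. CTSW averaged 1.90 CPM in SG1 and 2.61 CPM in SG3, against 2.01 CPM in CTRL, and CTSH 29.6 CPM in SG1 and 29.5 CPM in SG3, against 33.2 CPM in CTRL. CST7 (cystatin F, a protease inhibitor found in immune cells) averaged 21.9 CPM in SG1 and 18.9 CPM in SG3, against 17.3 CPM in CTRL. All of these fall short of the threshold.

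The sorting partners had a median log2 fold change of -0.09 in SG1 and 0.03 in SG3, and the other lysosomal genes one of -0.04 in both, beside 0.00 and -0.01 for all genes. GNPTG, a subunit of the enzyme that makes the mannose 6-phosphate tag, averaged 17.4 CPM in SG1 and 18.8 CPM in SG3, against 21.5 CPM in CTRL. TFEB, a master regulator of lysosomal genes, averaged 10.8 CPM in SG1 and 13.5 CPM in SG3, against 15.6 CPM in CTRL. Both averaged lower in the depletion groups, short of the threshold, and other genes of these lists went the other way or differed between SG1 and SG3. LGMN, the endopeptidase that cuts procathepsins, averaged 62.2 CPM in SG1 and 82.9 CPM in SG3, against 71.95 CPM in CTRL. NEU1, a lysosomal sialidase, averaged 49.4 CPM in SG1 and 59.6 CPM in SG3, against 53.6 CPM in CTRL. GNPTAB, which encodes the catalytic subunits of the tagging enzyme, averaged 48.2 CPM in SG1 and 46.6 CPM in SG3, against 42.5 CPM in CTRL. LGMN and NEU1 thus averaged lower in SG1 and higher in SG3, and GNPTAB averaged higher in both, all short of the threshold. The SG3 libraries of LGMN ran from 63.87 to 113.5 CPM with a median of 71.33 CPM, beside a CTRL median of 70.8 CPM. Those of GNPTAB ran from 38.35 to 61.34 CPM with a median of 40.07 CPM, beside a CTRL median of 40.15 CPM. For LGMN and GNPTAB the higher SG3 mean thus rests on the highest library. CD63, a membrane protein of late endosomes, averaged 145.5 CPM in SG1 and 192 CPM in SG3, against 199 CPM in CTRL. M6PR, a mannose 6-phosphate receptor, averaged 48.0 CPM in SG1 and 51.9 CPM in SG3, against 52.1 CPM in CTRL.

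The marker lists of other cells were read in the same libraries, with 0 genes called by edgeR. The macrophage genes summed to 11.6 to 17.2 CPM in SG1, 12 to 16.3 CPM in SG3 and 14.3 to 23.1 CPM in CTRL. CD14, a macrophage marker, averaged 6.14 ± 0.869 CPM in SG1 and 6.31 ± 0.867 CPM in SG3, against 9.24 ± 1.01 CPM in CTRL (SD, n = 3 each). Its depletion libraries were all below those of CTRL, with an edgeR p of 0.00924 and an adjusted p of 0.913 in SG1, and a p of 0.0139 and an adjusted p of 1 in SG3. The macrophage sums came mostly from CD14 and CSF1R. CSF1R overlapped CTRL, at means of 7.26 CPM in SG1, 7.78 CPM in SG3 and 9.525 CPM in CTRL. PTPRC averaged 0.069 CPM in SG1 and 0.046 CPM in SG3, against 0.042 CPM in CTRL. LYZ averaged 0.105 CPM in SG1 and 0.125 CPM in SG3, against 0.042 CPM in CTRL. TYROBP, AIF1, CD163 and MARCO were at 0 throughout. The fibroblast genes summed to 35.1 to 65.7 CPM in SG1, 38 to 60.5 CPM in SG3 and 54.8 to 63.2 CPM in CTRL. The keratinocyte genes summed to 88.2 to 106 CPM in SG1, 79.4 to 152 CPM in SG3 and 117 to 145 CPM in CTRL. The keratinocyte sums of SG1 lay below those of CTRL without overlap, beside 7.21% of all genes lower without overlap in SG1. The other sums overlapped. SFN and KRT10 made up most of the keratinocyte sums, at means of 78.8 and 17.45 CPM in SG1, against 104.7 and 28.8 CPM in CTRL. KRT5 and KRT1 were at 0 throughout, and KRT14 and DSG3 reached 0.041 and 0.0426 CPM at most. The 13 mitochondrial mRNAs, a sign of RNA quality, made up 0.962 to 3.41% of counts per library. Their log2 fold change was positive for 12 of 13 in SG1, with a median of 0.61. In SG3 it was negative for all 13, with a median of -0.16. With 0 called, all 13 overlapped CTRL in both groups, and the CTRL libraries alone ran from 0.962 to 2.55% of counts. The part of the markers and of the mitochondrial mRNAs in the members' values was not tested.

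A split that the group labels do not give ran through the depletion libraries and touched 4 members. The first principal component of the other genes, with 23.4% of the variance, put all SG1 libraries, SG3 replicate 1 and CTRL replicate 3 on its positive side, and SG3 replicates 2 and 3 and CTRL replicates 1 and 2 on its negative side. CTSD stood at 211 to 337 CPM in the 5 libraries of the positive side and 402 to 482 CPM in the 4 of the negative side. The other 3 were lower on the positive side as well. CTSZ stood at 223 to 295 CPM on the positive and 320 to 360 CPM on the negative side. CSTB stood at 86.6 to 105 CPM on the positive and 118 to 126 CPM on the negative side, and CTSL at 54.2 to 70.1 CPM on the positive and 73.3 to 83.5 CPM on the negative side. These 4 members did not overlap between the sides, and over all genes 10.2% were lower and 12.4% higher on the positive side without overlap. The other 6, CST1 among them, overlapped.

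The sides are not groups of the study and carry no test, and the SG1 libraries fall on 1 side only. Among the positive side the log2 difference of CTSD was -0.09 for SG1 against CTRL (3 libraries against 1) and -0.58 for SG3 against CTRL (1 against 1). Among the negative side it was 0.13 for SG3 against CTRL (2 against 2). For CST1 the value was 0.48 for SG1 on the positive side, and for SG3 it was -0.23 on the positive and 0.74 on the negative side.

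**Figure D5:**
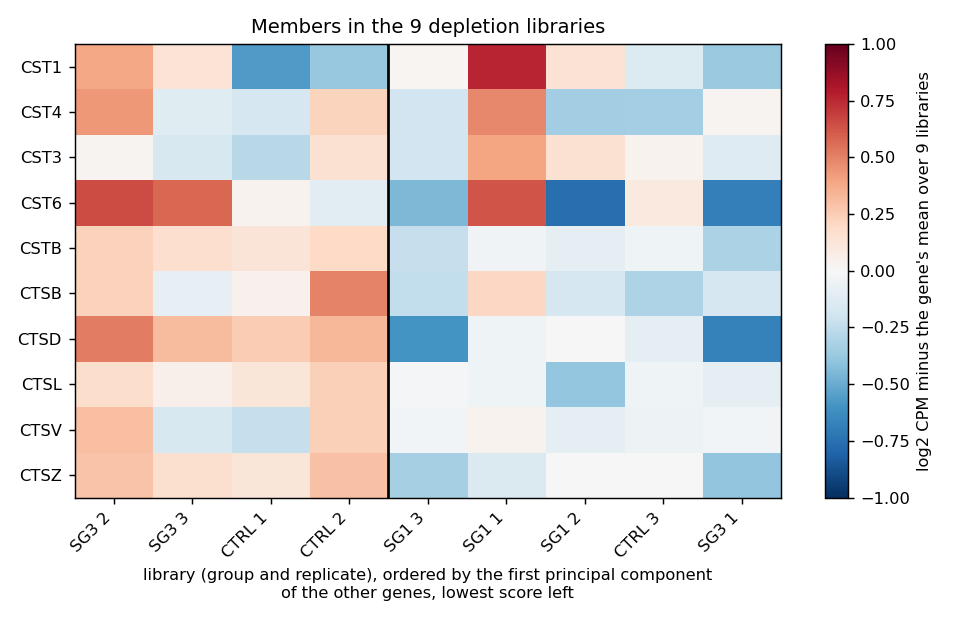
Log2 CPM of each member minus its mean over the 9 depletion libraries, red above and blue below that mean, with libraries ordered by their score on the first principal component of the other genes; the black line parts the 4 libraries of the negative side (left) from the 5 of the positive side. CSTB, CTSD, CTSL and CTSZ change with the side, while CST1 is highest in SG1 replicate 1.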

How the data were processed

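RNA was sequenced from 15 libraries, grouped by their sample titles. For the depletion libraries the authors deposited raw gene counts. For the overexpression libraries the labels name FPKM, yet the deposited values summed to 1000000 in each column, and 100% were whole multiples of a step within 0.001 fragments. The deposited unit is thus fragments per 1000000 (FPM), a CPM of fragments that the authors scaled by column total and not by gene length, as the planned test assumed. Per the submitters' processing notes build hg38 was used, with STAR 2.7.3a, Trim Galore 0.6.4, Subread 1.6.3 (featureCounts) and limma 3.50.3. The sources used here do not give the annotation, strand setting or filters.

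Counts of the 9 depletion libraries went into 1 edgeR 4.0.16 quasi-likelihood fit (R 4.3.3, TMM scaling, default expression filter, 16786 genes). FPM values were fitted with limma 3.58.1 (trend, robust) on log2(FPM + 1) for the 15265 genes that averaged 1 FPM or more, a scale that understates the change of low genes. Benjamini-Hochberg adjusted p under 0.05 was the threshold, over all genes. Both fits were tested on simulated data. Floors of 3 counts were 0.0588 to 0.0734 CPM and 0.135 to 0.188 FPM per library, and floors and intervals cover counting error only. Replicates differed beyond sampling noise (chi-square per degree of freedom 11.65 to 131.5). Among depletion counts of 10 to 50, 62.9 to 68% per library were even, so halved counts were an alternative. Other alternatives were DESeq2 1.42.0, other scalings, filters and pseudocounts, a replicate block, and each library left out.

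Named genes are the 10 members and KIF20A; the cystatin genes of the chromosome 20 cluster; in each list, in the depletion comparisons any gene called and otherwise the 2 with the smallest p, and for KIF20A_OE against EV the 2 largest differences without overlap in each direction; and the 3 genes most like CST1 per dataset. PTPRC, LYZ, CD14, CSF1R, FCER1G, AIF1, TYROBP, CD163, MARCO, FOXA1, FBLN1, COL1A1, COL1A2, PDGFRB, SFN, KRT10, KRT5, KRT1, KRT14 and DSG3 were named after their values were seen. The members and lists were chosen with earlier results of these data known. The coding bases of the CST1 group are not reported here.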

Additional observations from a re-analysis of the deposited data

How the results depend on the processing

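Of 560 alternative log2 fold changes of members in the depletion comparisons, 522 kept their direction and their side of the threshold, and 37 took the other sign, each on leaving out 1 library and from a value that had passed no threshold. The remaining 1 was CST1 in SG1, which passed without a filter on low counts. Without a filter on low counts, edgeR called 91 genes in SG1, 8 in SG3, 20 in their mean and 77 in SG1 against SG3, with 1 member among them, CST1 in SG1. DESeq2 called 2, 4, 4 and 4 genes in the same comparisons. Leaving out 1 library gave 0 to 1 calls in SG1 and 0 to 2 in the mean (the highest without SG1 replicate 2), 0 in SG3, 0 to 5 in SG1 against SG3 (without SG3 replicate 1), and 0 members throughout. In KIF20A_OE against EV it gave 9583 to 10363 genes. The cause of these shifts was not tested.

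Same-numbered replicates correlated at -0.123 to 0.182 after group means were taken out, which gives no sign of a strong pairing by number. With 3 libraries per group, such values cannot decide whether same-numbered libraries shared a day or culture. With the replicate block, edgeR called 0 genes in each depletion comparison, CST1 had a log2 fold change of 0.70 in SG1 and 0.43 in SG3, and limma called 10530 genes in KIF20A_OE against EV.

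The members whose log2 fold change took either sign when each library was left out in turn are given with their lowest and highest values. In SG1 against CTRL these were -0.011 to 0.30 for CST3, -0.22 to 0.28 for CST4, -0.63 to 0.18 for CST6, -0.36 to 0.071 for CTSB and -0.14 to 0.12 for CTSV. In SG3 against CTRL these were -0.19 to 0.064 for CST3, -0.16 to 0.12 for CSTB, -0.29 to 0.16 for CTSB, -0.27 to 0.27 for CTSD, -0.14 to 0.042 for CTSL, -0.093 to 0.22 for CTSV and -0.24 to 0.10 for CTSZ. In the mean of both groups against CTRL these were -0.081 to 0.16 for CST3, -0.0087 to 0.35 for CST4, -0.18 to 0.28 for CST6, -0.33 to 0.12 for CTSB and -0.099 to 0.17 for CTSV. In SG1 against SG3 these were -0.020 to 0.44 for CST1, -0.42 to 0.075 for CST4, -0.23 to 0.071 for CTSB and -0.18 to 0.067 for CTSV.

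The values within sides of the first principal component were chosen after seeing the data. With 3 libraries per group, a member that missed the threshold is not shown to be alike in both groups. The floor limits CST4 and CST6, and CST1 rests on 1 fragment, in the libraries labelled KIF20A_OE.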
